A study of Mus musculus with 18 samples.

Results

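Isolated accessible regions were the stretches of open chromatin in the macrophage catalog that lay farthest from any other listed region. The catalog came from ATAC-seq, in which a transposase cuts and tags open DNA for sequencing, of mouse bone marrow-derived macrophages (BMDMs), and its 82391 reference peaks, each extended by 700 bp to both sides and joined where they met, gave 59617 extended regions. Members were chosen by their gaps alone: an extended region on chromosomes 1 to 19 was isolated when more than 100000 bp separated it from the next extended region on each side, and the first and last region of each chromosome (38 in all) were left out. The rule was met by 656 of the 58348 regions it could be applied to (1.12%), and the remaining 57692 are called other regions here. The isolated regions held 739 reference peaks and 753 summits.

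The catalog was built from 18 libraries in 9 groups of 2. All cells were wild-type BMDMs pre-treated with the vehicle DMSO for 1 h, and the study's methods name male C57/BL6 mice as their source. They were then left untreated (1 group) or stimulated at 10 ng/mL with LPS (a bacterial wall component, 4 groups) or with IL-4 (the cytokine of alternative activation, 4 groups), and were collected after 30 min, 1 h, 2 h or 4 h. The deposited lists pool all libraries, so a region is open in at least some of these conditions but cannot be assigned to any of them, and depth per library is unknown. How many of all genes held a reference peak at a start site is not given here. Marker counts therefore do not by themselves show which cells were present. Start sites of 10 of 10 macrophage marker genes held a reference peak. So did start sites of marker genes of other cells, namely 2 of 5 for neutrophils, 1 of 5 for T cells, 3 of 5 for B cells, 0 of 5 for erythroid cells and 3 of 5 for stromal cells. Of these 25 genes, 0 had an isolated region at a start site, in the gene body or as the region for which it was the nearest coding gene, near the background of 3.05% of autosomal protein-coding genes, and the part of other cells in the isolated regions was not tested.

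Open chromatin marks promoters, where transcription starts, and distal elements such as enhancers and insulators. In macrophages the ETS factor PU.1 opens distal elements together with partners that include AP-1, C/EBP and RUNX factors, whereas SP and KLF factors bind GC-rich promoters and CTCF marks insulators and the anchors of chromatin loops. Enhancers of active loci tend to occur in groups, and wide stretches without open chromatin are typical of gene deserts and of gene families that are silent in the cell type studied.

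The patterns of 8 motifs were found more often at the best scored summits of isolated regions than in sequence 1000 bp away (values below), and for each of them the best scored isolated region whose 201-base window overlaps no annotated exon is printed to show how these sites look. For all but PU.1/ETS and AP-1, members with a higher score and the same pattern overlapped an exon, such as the Elac2 promoter (SP/KLF, score 2297), and are not printed. Each line holds the 201 bases around the summit as read from assembly GRCm38.p6 (the coordinates of mm10), 5′ to 3′ on the plus strand, with the letters that match the pattern on either strand in capitals.
PU.1/ETS region, chr14:24779244-24779444, plus strand: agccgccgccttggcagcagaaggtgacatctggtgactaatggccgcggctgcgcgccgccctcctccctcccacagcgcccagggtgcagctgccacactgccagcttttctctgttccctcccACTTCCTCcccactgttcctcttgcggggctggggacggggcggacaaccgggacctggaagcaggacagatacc
AP-1 region, chr1:38437785-38437985, plus strand: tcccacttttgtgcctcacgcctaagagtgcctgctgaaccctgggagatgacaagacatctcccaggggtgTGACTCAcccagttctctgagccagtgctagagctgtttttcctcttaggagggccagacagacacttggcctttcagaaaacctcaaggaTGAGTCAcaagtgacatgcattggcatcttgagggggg
CTCF region, chr17:89654547-89654747, plus strand: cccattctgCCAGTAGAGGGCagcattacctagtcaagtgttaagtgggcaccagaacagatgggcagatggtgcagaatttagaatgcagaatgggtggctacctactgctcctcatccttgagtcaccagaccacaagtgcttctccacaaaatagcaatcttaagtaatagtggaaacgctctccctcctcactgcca
NF-kB region, chr1:150759750-150759950, plus strand: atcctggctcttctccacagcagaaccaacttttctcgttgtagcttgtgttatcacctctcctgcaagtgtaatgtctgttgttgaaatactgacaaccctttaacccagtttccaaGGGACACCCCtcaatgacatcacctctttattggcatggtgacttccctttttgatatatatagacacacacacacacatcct
RUNX region, chr6:32028317-32028517, plus strand: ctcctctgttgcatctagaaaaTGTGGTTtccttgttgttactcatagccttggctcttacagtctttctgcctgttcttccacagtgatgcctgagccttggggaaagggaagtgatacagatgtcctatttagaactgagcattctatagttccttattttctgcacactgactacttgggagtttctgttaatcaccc
C/EBP region, chr3:81782998-81783198, plus strand: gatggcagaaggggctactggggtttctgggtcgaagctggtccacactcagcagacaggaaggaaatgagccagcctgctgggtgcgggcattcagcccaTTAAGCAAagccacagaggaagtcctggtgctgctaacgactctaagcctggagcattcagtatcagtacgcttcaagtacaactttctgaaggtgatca
SP/KLF region, chr14:49172003-49172203, plus strand: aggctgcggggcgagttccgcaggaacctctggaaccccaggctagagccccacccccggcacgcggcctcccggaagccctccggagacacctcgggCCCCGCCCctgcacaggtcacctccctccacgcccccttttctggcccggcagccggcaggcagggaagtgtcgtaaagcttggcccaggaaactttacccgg
CRE region, chr13:8645389-8645589, plus strand: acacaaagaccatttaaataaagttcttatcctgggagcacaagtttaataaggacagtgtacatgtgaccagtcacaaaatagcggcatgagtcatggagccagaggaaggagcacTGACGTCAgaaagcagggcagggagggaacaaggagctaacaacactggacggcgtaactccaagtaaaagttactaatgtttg

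The PU.1/ETS region had a score of 1890, lay inside a noncoding gene and was 288195 bp from the nearest protein-coding start site, that of the ribosomal protein gene Rps24. The AP-1 region had a score of 1995, the highest of all distal isolated regions, and held 2 AP-1 sites in an intron of Aff3, a nuclear factor of the AF4 family. The NF-kB region lay in a coding intron with 3 reference peaks and a score of 1381. The C/EBP region, 149503 bp from the start of the cathepsin gene Ctso, also held a PU.1/ETS site and had a score of 1518. The CTCF region (score 1164) and the CRE region (score 780, in an intron of the RNA-editing family gene Adarb2) each held an AP-1 site as well. The RUNX region was intergenic, with a score of 1406. The SP/KLF region was the promoter of Naa30, an N-terminal acetyltransferase, with a score of 2087 and 70.1% GC in the printed window.

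The gaps that define the members were wide but seldom empty of peaks of the authors' merged call. The smaller of a member's 2 gaps had a median of 165778 bp (quartiles 124770 and 272440 bp) and reached 3603095 bp. The most remote member was the promoter of Dsel, an enzyme of dermatan sulfate synthesis, at chr1:111863415-111865838, with gaps of 3603095 and 6444592 bp, 3 reference peaks and a score of 1480. Among the 5 members with the largest smaller gap, 3 were promoters: after Dsel came Rnpc3 (a protein of the minor spliceosome, score 1431) and Zik1 (a zinc-finger protein, score 923). The other 2 were intergenic, at chr14:89608996-89610643 with a score of 290 and at chr1:146967313-146968912 with a score of 911 and a PU.1/ETS site. The 5 members just inside the rule had smaller gaps of 100819 to 101059 bp and scores of 167, 384, 900, 1094 and 644. The 5 regions just outside it had smaller gaps of 99484 to 99881 bp and scores of 1176, 367, 358, 393 and 448.

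Summit names carry a running number from the authors' merged peak call, which reached 217313, and the numbers never fell along a chromosome. Only 69718 different numbers (32.1%) were kept in the list, so the numbers skipped between neighbouring regions count peaks of the merged call that the reference list does not hold. A gap beside an isolated region held a median of 5 such peaks (quartiles 3 and 8, highest 237). At least 1 lay on each side of 606 members (92.4%), and 4 members had 0 on both sides. Per 100000 bp of gap there were 1.17 left-out peaks beside isolated regions, 1.84 in other gaps over 100000 bp, 10.8 in gaps of 20000 to 100000 bp and 23.5 in gaps up to 20000 bp. Wide gaps of the catalog were therefore also thin in peaks that had not been kept. The gap is a part of the rule, and these densities are a description with no test.

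**Figure D1:**
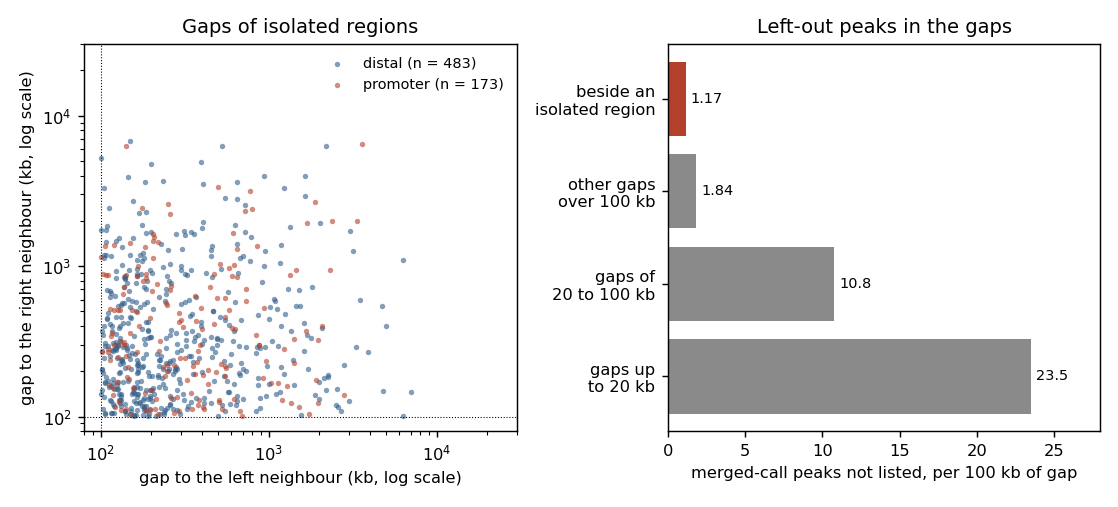
Gaps of the 656 isolated regions and the peaks left out of the list in them. Left, each point is a member, with its left gap against its right gap in kb on log axes, promoters in red, distal regions in blue and the cutoff as dotted lines. Right, peaks of the merged call that are not in the reference list per 100 kb of gap, 1.17 beside isolated regions (red) against 23.5 in gaps up to 20 kb.

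Isolated regions were found on all 19 autosomes, from 15 on chromosome 19 to 52 on chromosomes 1 and 2. Their share of tested regions ranged from 0.577% on chromosome 11 to 2.02% on chromosome 18, and was lower where regions were denser (Spearman rho -0.814 with the regions per Mb of chromosome over 19 autosomes; the rule uses spacing, so this is a description). Members also neighboured each other. In 262 of them (39.9%) the next region on at least 1 side was isolated too, which made 89 runs of 2, 18 of 3, 5 of 4 and 2 of 5 members. The run with the widest span held 5 distal members over 8152656 bp of chromosome 14 around the protocadherin gene Pcdh9 and Klhl1, with scores of 234 to 1048. The other run of 5 held 4 promoters on chromosome 18, those of the ion cotransporter Slc12a2 (score 727), Isoc1 (737), the chondroitin synthase Chsy3 (1117) and Gm4951 (685), and a distal region near the fatty acid transporter Slc27a6 (934). A run of 4 on chromosome 12 joined the promoters of Mbip (1418) and Prps1l3 (1747) with 2 distal regions, and spanned Nkx2-1, Pax9 and Foxa1, developmental transcription factor genes. Runs of 4 distal regions lay around the cell adhesion gene Cntnap5b on chromosome 1 (scores 524 to 1188) and around Unc5c and Bmpr1b on chromosome 3 (402 to 878).

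Isolated regions marked promoters in 26.4% of cases, and their share outside genes was above that of other regions. The best scored summit was within 1000 bp of an annotated start site in 173 members (26.4%), against 24.9% of other regions. Averaged over the 19 chromosomes, the share was 26.4% in isolated and 24.6% in other regions, a difference of 1.77 percentage points ± 8.03 (SD over chromosomes, higher on 12 of 19), which did not pass the test (two-sided sign permutation test over chromosomes with 100000 resamples, adjusted p = 0.461). Of the 173 promoter members, 147 were at protein-coding start sites, 16 at long noncoding start sites only and 10 at other start sites only. Intergenic positions made up 42.1% of members (276 regions, 95% Wilson interval 38.4 to 45.9) and 28.3% of other regions. Introns of coding genes held 23.9% (157 regions, interval 20.8 to 27.3) against 39.0%. Noncoding genes held 40 members, untranslated exons 6 and coding exons 4. The nearest protein-coding start site was more than 100000 bp away for 40.5% of members and 6.82% of other regions, and the median distance of distal members was 107423 bp against 14463 bp. The rule keeps every other listed region, open promoters included, more than 100000 bp from a member. Distances to start sites and shares outside genes thus depend on the rule in part. These differences in position are a description and were not tested.

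**Figure D2:**
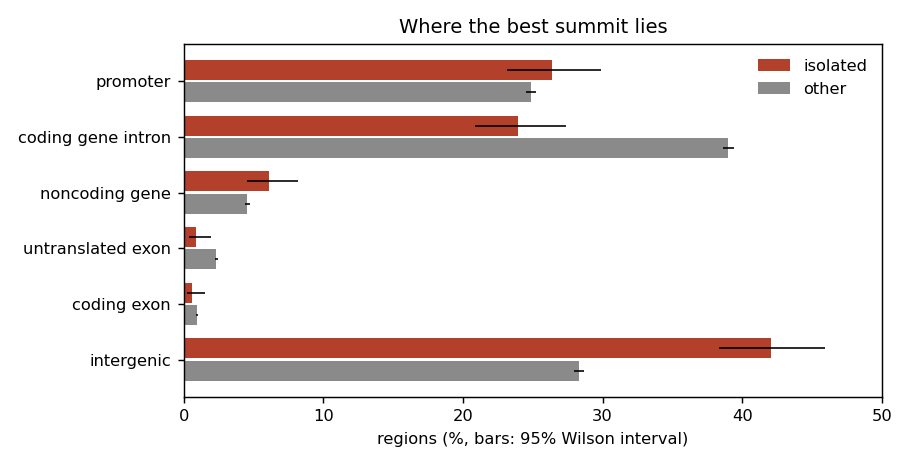
Annotated position of the best scored summit in 656 isolated regions (red) and 57692 other regions (grey), as percent of regions with 95% Wilson intervals. Promoter means a start site within 1000 bp. Isolated regions were intergenic in 42.1% and in a coding intron in 23.9%, against 28.3% and 39.0%.

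Promoters made up 78.7% of the 94 isolated regions with a score of at least 1272, against 49.9% of the 14493 best scored other regions (score 1272 and above, ties split by order). In the 3 lower score classes of equal size the shares were 10.8% against 9.74%, 18.3% against 14.7% and 28.2% against 24.9%, and none of these differences was tested. The shares do not mean that isolated promoters scored higher. Median scores were 1176 in isolated against 1272 in other promoters, and 583 in isolated against 727 in other distal regions. The summit score, given by the authors' peak caller on a scale that is not stated, ran from 102 to 2336 in members. The highest belonged to the promoter of Kat6b, a histone acetyltransferase, at chr14:21499640-21502071 (score 2336). The promoter of Elac2, which trims the 3′ ends of tRNA precursors, followed with 2297, and those of Pex2, a peroxisome assembly factor, and Hsd17b7, an enzyme of cholesterol and steroid synthesis, had 2193 and 2100. Naa30 came next with 2087. Shprh, a helicase of DNA damage tolerance, Mad2l1, the spindle checkpoint protein, and Kbtbd8, a ubiquitin ligase adaptor, all had 2061. Slc25a32, a mitochondrial folate carrier, had 2048 and Mfap3l had 2008. In each of these 10 promoters the best summit lay within 128 bp of the coding start site and the windows had 60.2% to 76.1% GC. In all, 116 of the 173 promoter members (67.1%) had a CpG-rich window (at least 50% GC and an observed to expected CpG ratio over 0.6), against 56.7% of other promoters. A region in the top 5 that was no coding promoter, at chr2:22586494-22590631 beside Gm13341 (score 2245), matched mitochondrial sequence over 100% of the 76 bases around its summit. These bases occur in 2 places of the nuclear chromosomes, and mitochondrial DNA was not part of that count.

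Isolated regions as a whole scored lower than other regions. Their median score was 654 (quartiles 439 and 1013) against 823 (534 and 1272). On every one of the 19 autosomes the median was lower in isolated regions, by 42.5 points on chromosome 1 up to 329 on chromosome 16 (these points are units of the score). The mean of the chromosome medians was 644 against 824, a difference of -179 ± 85.4 (SD over 19 chromosomes, adjusted p = 8e-05, permutation test). A single peak was held by 88.4% of members against 74.7% of other regions, and the part of peak number in the score difference was not tested over all members. Among distal regions with 1 peak (444 isolated and 34672 other) the difference was -99.6 ± 72.5 over the 18 chromosomes with at least 10 such members, lower on 17 of 18 (permutation test, adjusted p = 0.00012). Promoters alone had medians of 1176 and 1272 in isolated and other regions, and over the 9 chromosomes that could be used they differed by -117 ± 280 (permutation test, adjusted p = 0.539), which did not pass. A low-scored region is nearer to the limit at which the authors kept a peak, and how that limit bears on the difference was not tested.

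**Figure D3:**
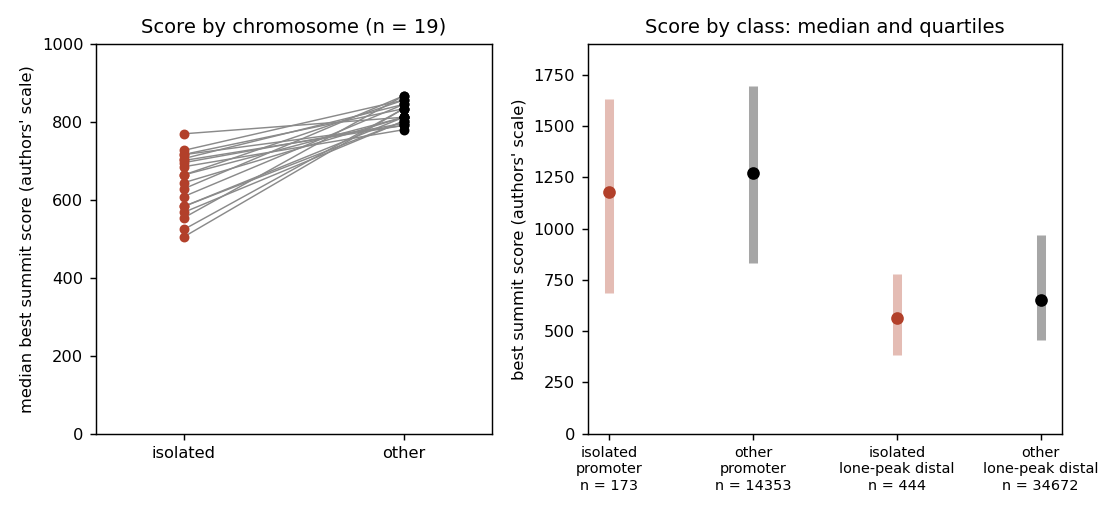
Best summit score of isolated (red) and other (black) regions. Left, the median of each of 19 autosomes, joined by a line per chromosome, with isolated regions lower on 19 of 19. Right, median (point) and quartiles (bar) over regions for promoters and for distal regions with 1 peak, 1176 against 1272 and 563 against 654.

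Members with a smaller gap over 500000 bp (67 regions) had a start site within 1000 bp in 37.3% of cases, against 23.1% of the 407 members with a smaller gap up to 200000 bp. At a cutoff of 200000 bp for both gaps, the promoter share was 7.28 percentage points higher in isolated than in other regions (16 chromosomes, permutation test, adjusted p = 0.0291). With start sites counted within 2500 bp in place of 1000 bp, the difference at the original cutoff was -2.97 points (permutation test, adjusted p = 0.232). The direction at that cutoff thus depends on the window. The shares of PU.1/ETS, AP-1 and CTCF sites in the same 67 regions were 10.4%, 16.4% and 2.99%, with intervals that include the shares of all members.

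**Figure D4:**
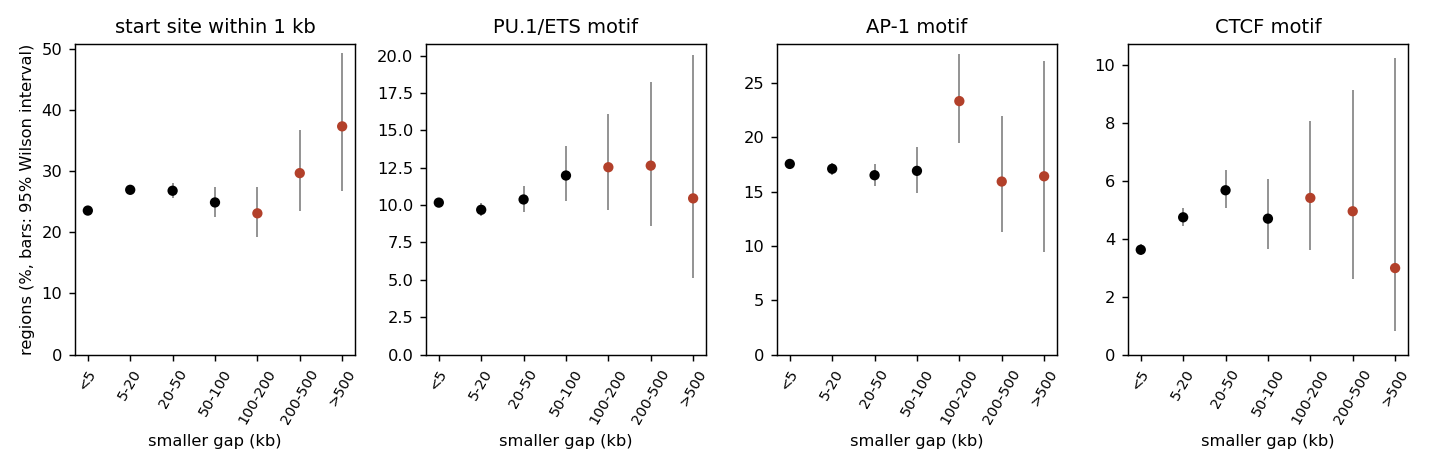
Share of regions with a start site within 1 kb or with a PU.1/ETS, AP-1 or CTCF site at the best summit, by the smaller gap in kb, with 95% Wilson intervals. Black points are regions below the cutoff and red points are above it. The promoter share was 23.1% at 100 to 200 kb and 37.3% above 500 kb.

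In this window, neither GC content nor repeats passed the test over all members. The 201 bases around the best summit had 50.5% GC in isolated and 51.3% in other regions (means over chromosomes, difference -0.77 ± 2.37, permutation test, adjusted p = 0.349). With 200 bp to each side of the summit the GC difference was -1.12 and passed (permutation test, adjusted p = 0.0428). Among distal regions with 1 peak the difference was -1.52 ± 1.88 and passed the test (18 chromosomes, permutation test, adjusted p = 0.00606). Repeat-masked bases made up 13.6% and 13.1% (difference 0.47 ± 4.54, permutation test, adjusted p = 0.673), and the difference was -0.55 where the 76 bases around the summit occur once. The 76 bases around the summit, the read length, occurred more than once in the genome for 23 members (3.51%, 95% Wilson interval 2.35 to 5.21) against 1.03% of other regions, and for 10.4% of members with a smaller gap over 500000 bp. A read made only of such bases has more than 1 possible position, and how such reads were placed was not tested. The member with the most copies, 661, was at chr13:4941905-4943496 and had a score of 358. The intergenic member at chr14:89608996-89610643, which had the second largest smaller gap, had 100% repeat-masked bases in the 201 bases around its summit, and the 76 bases there occurred 8 times.

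The summits of isolated regions held patterns of AP-1, C/EBP, PU.1 and RUNX factors more often than the sequence beside them. In all, 12 patterns were searched on both strands in the 201 bases around the best summit. AP-1 (TGACTCA or TGAGTCA) was found in 135 members (20.6%, 95% Wilson interval 17.7 to 23.8), and 24 of these held more than 1 site. C/EBP (TTGCNNAA) was found in 96 members (14.6%), PU.1/ETS (GAGGAAGT) in 81 (12.3%), RUNX (TGTGGTT) in 64 (9.76%), SP/KLF (GGGCGGGG) in 50 (7.62%), NF-kB in 41 (6.25%), CTCF in 33 (5.03%) and CRE (TGACGTCA) in 11 (1.68%). Shares in other regions were 17.3% for AP-1, 11.6% for C/EBP, 10.1% for PU.1/ETS, 8.29% for RUNX, 7.22% for SP/KLF, 5.37% for NF-kB, 4.15% for CTCF and 1.07% for CRE. A match describes the letters in the window and does not show that a factor was bound.

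Against flanking windows of the same length 1000 bp to each side, 8 of the 12 patterns were more frequent at the summit (two-sided sign permutation tests over 19 chromosomes, adjusted over 12 patterns). The windows also differed in composition. Summits of isolated regions had 50.4% GC and 13.2% repeat-masked bases, and their flanks 42.4% and 25.3%. The part of composition in these shares was not tested. AP-1 was at 21.3% against 3.26% (difference 18.02 percentage points ± 7.42, higher on 19 of 19 chromosomes, permutation test, adjusted p = 0.00012). PU.1/ETS was at 12.9% against 1.39% (11.5 ± 6.21, higher on 17 of 19) and SP/KLF at 7.62% against 0.851% (6.77 ± 3.82, higher on 19 of 19), both with the same adjusted permutation p as AP-1. CTCF was at 5.44% against 0.190% and RUNX at 9.82% against 4.27% (adjusted permutation p = 0.000168 for each). In the same permutation tests, NF-kB was at 5.70% against 2.18% (adjusted p = 0.00116), C/EBP at 14.5% against 9.16% (adjusted p = 0.00358) and CRE at 1.64% against 0.434% (adjusted p = 0.0325). The 4 that did not pass were STAT6 (TTCNNNNGAA, 6.01% against 7.32%), IRF (GAAANNGAAA, 4.53% against 4.20%), MEF2 (0.776% against 0.392%) and HNF1, with 0 windows at summits or flanks. The HNF1 pattern was also absent from the summits of all 57692 other regions, so it is too rare to tell anything about the members. CRE did not pass when any 1 of 8 chromosomes was left out (adjusted p up to 0.0639).

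Against other regions, 0 of 12 patterns passed the permutation test after adjustment, and 2 had an unadjusted p under 0.05: AP-1 (21.3% against 17.3%, 3.94 ± 7.52 percentage points, higher on 14 of 19 chromosomes, adjusted p = 0.192) and C/EBP (14.5% against 11.7%, 2.85 ± 4.62, higher on 12 of 19, adjusted p = 0.18). PU.1/ETS sites were at 12.9% against 10.0% (2.90 ± 6.44, permutation test, adjusted p = 0.192). At a gap cutoff of 50000 bp the AP-1 difference was 0.60 points, and at 200000 bp the AP-1 and PU.1/ETS differences turned to -2.37 and -0.53 points, none of which passed. C/EBP alone passed the permutation test when chromosome 19 was left out (adjusted p = 0.039) or when the window reached 200 bp to each side (adjusted p = 0.00828). Among distal regions with 1 peak, PU.1/ETS sites were at 16.2% against 11.4%, AP-1 at 25.1% against 19.9% and RUNX at 11.8% against 9.48% (means over 18 chromosomes, adjusted p = 0.133 for each, permutation test). The GC content of these distal regions differed too, as given above, and its part in these shares was not tested.

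**Figure D5:**
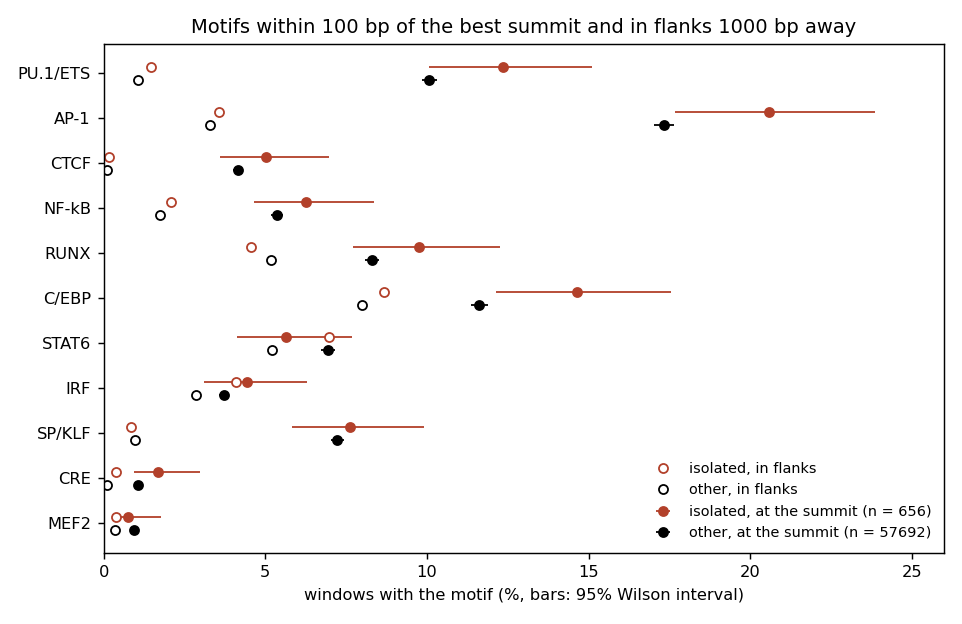
Share of windows with each of 11 patterns in isolated (red, n = 656) and other (black, n = 57692) regions, at the best summit (filled, with 95% Wilson interval) and in the flanks (open). In isolated regions AP-1 was at 20.6% and PU.1/ETS at 12.3% of summits. HNF1, at 0, is not drawn.

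Among promoter members SP/KLF was the most frequent of the sites named here. SP/KLF sites were found in 38 of 173 promoter members (21.97%), against 23.9% of other promoters, and these were 38 of the 50 members with such a site. PU.1/ETS sites were found in 6 promoter members (3.47%, other promoters 5.55%) and AP-1 sites in 9 (5.20%, other promoters 7.94%). Of 483 distal members, 216 (44.7%) held a PU.1/ETS, AP-1 or CTCF site, against 34.7% of other distal regions (a pooled share that was not tested), and 10 held both PU.1/ETS and AP-1. Tested singly over the 18 chromosomes with enough distal members, neither AP-1 (5.87 points higher, adjusted p = 0.065, permutation test) nor PU.1/ETS (3.89 points higher, adjusted p = 0.14) passed, and 0 of 12 patterns did. None of the 12 patterns was found in 224 members (34.1%). Members with an SP/KLF site had a median score of 1188, those with PU.1/ETS 654, with AP-1 644 and with CTCF 554. Sites lay near the summit: the median distance was 25.5 bp for PU.1/ETS, 28 bp for AP-1 and 25.5 bp for CTCF in isolated regions, and 30.5, 28 and 19.5 bp in other regions.

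Of 20 macrophage genes, 25 LPS response genes and 15 genes used by all cells, 0 had a member at a start site, in the gene body or as the nearest coding gene, although a reference peak lay at a start site of 20, 25 and 15 of them. The share of all genes with such a peak is not given here. Of 20 IL-4 response genes, 1 was the nearest coding gene of a member: Tfec, a transcription factor of the MiT family, whose start was 475105 bp from a member of score 554 with 51 genome copies of its 76 bases. Of 30 long genes, most of them of neuronal adhesion and the synapse, 8 had a member (1 of these, Macrod2, is no such gene), against 634 of 20780 autosomal protein-coding genes (3.05%). Against that 3.05%, counts of 0 in lists of this size are near the background, and all 5 lists of other cell types (5 genes each) also had 0. The lists were chosen with earlier results known, and their counts are a description.

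Members at these long genes lay mostly in introns. Single members lay in the bodies of Lrrtm4 (a synaptic adhesion protein, score 1141), Cntnap2 (a neuronal adhesion protein, 613), Dlg2 (a postsynaptic scaffold, 439) and Tenm2 (a teneurin, 315). The start site of Macrod2, an ADP-ribose hydrolase, was open with a score of 1632, and that of Negr1, a neuronal adhesion gene, was 868 bp from a member of score 505 whose nearest start site belonged to a noncoding gene. Robo2, an axon guidance receptor, was the nearest coding gene of a member 24703 bp away (score 823).

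Across the genome, 229 members lay in the bodies of 220 protein-coding genes. Of these genes, 158 had no member at a start site, and their median length was 283452 bp, against 17403 bp for all protein-coding genes. The polarity gene Pard3b, 1003461 bp long, held 3 members, at its start site (score 613) and in introns (603 and 1320). The next genes held 2 each, among them Macrod2 (1048 and 1632), the cGMP-dependent kinase Prkg1 (644 and 1418), Nkain3 (515 and 685), Adarb2 (524 and 780), the sialyltransferase St6galnac3 (716 and 1260), the formin Diaph3 (573 and 644), Fstl4 (515 and 1106) and the synaptic scaffold Shank2 (430 and 505). The member inside Macrod2 with a score of 1048 was the promoter of Flrt3, a gene nested in it. The part of gene length in these counts was not tested.

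Some members had a sensory receptor or adhesion gene as the nearest coding gene. Olfactory receptor genes were nearest to 8 members (1.22%, 95% Wilson interval 0.619 to 2.39) and 0.215% of other regions, and 3 of the 8 were promoters, among them Olfr658 (score 495) and Olfr1033 (score 324). Vomeronasal receptor genes were nearest to 5 (0.762%) against 0.0295% of other regions, and cadherin genes named Cdh to 6 (0.915%) against 0.0659%, with Cdh10 (score 1141) and Cdh6 (score 878) on either side of a gap of 6280620 bp on chromosome 15. Zinc-finger genes named Zfp were nearest to 10 members (1.52%), close to the 1.67% of other regions. These shares were not tested.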

How the data were processed

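The authors prepared 18 ATAC-seq libraries, 2 for each of 9 groups of BMDMs. According to the study's methods, reads were trimmed (Trimmomatic 0.39), aligned to mm10 with ShortStack and filtered (SAMtools 1.9), and peaks and summits were called with MACS2 2.2.6, with duplicates kept. The methods add that the reference set kept only peaks that passed a q-value limit and overlapped between replicates. Which regions count as isolated depends on that choice. No shift of reads to the Tn5 cut site is stated, so a summit may lie beside the densest cuts. The deposited files are 3 lists of positions. The summit list also holds a score per summit, deposited by the authors, whose scale is not stated. The lists do not separate the libraries (0 columns were of other samples), so stimuli, time points and replicates were not compared, and depth and precision per library are unknown.

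Gaps were measured between neighbouring extended regions, and each region was represented by its best scored summit. Sequence came from GRCm38.p6 and genes from GENCODE M21 (all entries ended inside the chromosome on 21 of 21 chromosomes). Repeats are its lower case bases. Isolated regions were compared with other regions, or summit windows with flanks 1000 bp away, as a paired difference per autosome (median for scores, mean or percent otherwise). Chromosomes with under 10 members were left out. The difference was tested by permuting its sign over chromosomes (two-sided, 100000 resamples, smallest possible p 1e-05), with Benjamini-Hochberg adjustment over 4 measures or 12 motifs and a threshold of 0.05. Regions were not treated as replicates. Chromosomes are not independent samples of cells, so p-values measure the spread between chromosomes of 1 catalog. Wilson intervals cover counting error only. Functions were tested on simulated data. Alternatives were other gap cutoffs, start site windows and window sizes, subsets of regions and leaving out each chromosome. Named regions and genes were the best scored, most remote, most peak-rich and threshold members, the best scored coding promoters and distal members, the longest runs, the genes with most members and those of fixed lists. The values of 1 gene that the rule names are not reported here. Members, lists and tests were chosen with earlier results of these data known. The Python libraries numpy 2.4.6, pandas 2.3.3 and scipy 1.17.1 were used.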

Additional observations from a re-analysis of the deposited data

How the results depend on the processing

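Gap cutoffs of 50000 and 200000 bp gave 1850 and 249 isolated regions in place of 656. The promoter share difference was 7.28 points at 200000 bp (passing the test) and -2.97 with start sites within 2500 bp. At 50000 bp the promoter share difference was 0.78 points and those in AP-1 and RUNX shares 0.60 and 0.63. At 200000 bp the differences from other regions in AP-1 and PU.1/ETS shares were -2.37 and -0.53 points, none of these passing the test. The GC difference passed at -1.52 in lone-peak distal regions, -1.76 in all distal regions and -1.12 with 200 bp to each side, and was 0.61 in promoters (not passing). The repeat difference was -0.12 in lone-peak distal regions, -0.55 where the 76 bases occur once and -1.10 in promoters. The score difference was -117 in promoters and no longer passed. Motifs passing against other regions numbered 1 (C/EBP) with 200 bp to each side. The subsets of promoters and all distal regions, and unique sequence for the measures other than motifs, were chosen after seeing the data, and the cause of each change was not tested. Leaving out each chromosome in turn gave differences of -187 to -171 for the score, 1.10 to 2.74 for the promoter share, -1.05 to -0.47 for GC and -0.21 to 0.80 for repeats, below 0 only without chromosome 19, and 0 to 1 motifs against other regions and 7 to 8 against flanks. In all other settings run, direction and side of the threshold did not change for the values that answer a comparison. No paired analysis was possible because replicate numbers pair libraries and the lists have no column per library (isolated and other regions were paired by chromosome only). Leaving out a library was not run for the same reason. Pooled lists limit every value to the catalog as a whole.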
